A study of Mus musculus with 8 samples.

Results

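The insulin-like growth factor (IGF) ligands and their binding proteins were followed in the No. 4 mammary gland of mouse dams at lactation day 1, in 4 wild-type animals (WT) and 4 animals with a knockout (KO) of Th-POK. The genes were taken by name: the ligands Igf1 and Igf2 and the binding proteins Igfbp2, Igfbp3, Igfbp4, Igfbp5, Igfbp6 and Igfbp7, which makes 8 members. Of these, 7 had a probe whose accession matched the gene table, among 18749 genes with such a probe. For Igfbp6 no probe was matched, and it was not analysed here. All 7 measured members were well above background on all 8 arrays and are among the 14137 genes tested.

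Both groups were females of the C57/Bl6 strain, lactating, age matched per the methods and given standard chow, with no age stated. The KO dams carried the Th-POK knockout and the WT dams did not. Neither the labels nor the methods name a tissue-restricted deletion. The paper treats the loss as reaching beyond the gland's epithelium, since it used KO mice as hosts of transplanted epithelium to examine the surrounding tissue. RNA of each gland was hybridized to a 1-colour Agilent mouse array of its own, and a value below is the log2 of a probe's processed signal after quantile normalization between arrays. A difference is KO minus WT on that scale, and a gene is said to have risen or fallen only where limma gave a Benjamini-Hochberg adjusted p under 0.05 over all genes tested. Signals of different probes are not compared with each other.

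Zbtb7b, which encodes Th-POK, read between 9.90 and 10.42 in WT glands and was not well above background on any KO array. Against the lowest signal called well above background on each KO array, it was at least 81.5-fold lower in KO glands. The limma test on the signals as read gave an adjusted p of 5.71e-09. Between 66.8% and 75.3% of probes per array were well above background and 0 spots were saturated. Slide 1 carried the 4 WT arrays and slide 2 the 4 KO arrays, so genotype and slide cannot be told apart in any comparison given here. In RNA of a whole gland, fewer cells of a type and less RNA per cell cannot be told apart either.

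IGF-I and IGF-II are secreted peptides that act through the IGF-I receptor, a tyrosine kinase related to the insulin receptor, while the IGF-II/mannose-6-phosphate receptor takes up IGF-II for degradation. The classical IGF binding proteins hold the peptides in tissue fluid and blood, where they prolong their life or keep them from the receptor, and proteases that cut the binding proteins set the peptides free. In the mammary gland IGFs are known as growth and survival factors of the epithelium, and IGFBP-5 is known for its rise during involution.

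The sequences just upstream of the transcription starts are shown for Igf2, Igfbp5 and Igfbp3, the members that rose or fell, and for Igfbp4, which is the one member with the motif TATAAA in the 60 bases before its start. They are from RefSeq promoters of the build GRCm38.p6, which held an entry for all 8 members, and each is a stretch of 30 bases read 5′ to 3′ on the strand of the gene. Capitals mark the longest run of A and T where that run was 6 bases or more within those 60 bases.
Igf2, promoter 1 of 4, chr7:142666847-142666876, minus strand: tgtgtgaatggggtgggaagcagctagaga
Igf2, promoter 2 of 4, chr7:142661272-142661301, minus strand: agcttcccgtcctgcgcataacagtggtat
Igf2, promoter 3 of 4, chr7:142658835-142658864, minus strand: ccctccccgttcctcctcgcctcagactcc
Igf2, promoter 4 of 4, chr7:142657497-142657526, minus strand: gggaggagccactcagacATAAAAAgcgga
Igfbp5, chr1:72874896-72874925, minus strand: ggggccgtcTATTTAAAAgcgcctgctcga
Igfbp3, chr11:7213936-7213965, minus strand: caccccggcttcTATATATcggcctgcgcg
Igfbp4, chr11:99041204-99041233, plus strand: ccagggggccggTATAAAgtcccgggagcc

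Runs of this length stood in 6 of the 12 promoters of the members, against 28.3% of all 32851 promoters in the table. TATAAA, searched on the gene's strand, was present in 2.87% of all promoters. The letters TTCNNNGAA, the core to which STAT5 and other STAT factors are known to bind, were searched on both strands of the 250 bases before each start and were in 0 of the 12, against 7.02% of all promoters. A match or its absence describes these windows only. In the gene table Igfbp2 and Igfbp5 are next to each other on chromosome 1, and Igfbp1 and Igfbp3 are next to each other on chromosome 11.

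Of the 7 measured members, Igf2 and Igfbp5 rose in the KO glands, Igfbp3 fell, and Igf1, Igfbp2, Igfbp4 and Igfbp7 did not pass the test. The 3 of 7 called stand beside 16.5% of all genes tested. Genes that rose made up 7.53% of all and genes that fell 8.96%. The WT and KO values did not overlap for 4 of the 7 members, namely Igf1, Igf2, Igfbp3 and Igfbp5, against 24.1% of all genes (11.1% with KO higher and 12.9% with KO lower).

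Igf2, the ligand best known from fetal growth, was the member with the largest difference. It read 9.59, 8.39, 9.18 and 8.93 in WT glands 1 to 4 and 12.97, 12.69, 12.43 and 12.47 in KO glands 1 to 4. Every KO gland was above every WT gland, and the gap of 2.84 between the lowest KO and the highest WT gland was wider than the whole spread within either genotype. The mean was 9.02 ± 0.50 in WT and 12.64 ± 0.25 in KO (SD, n = 4 each), which is a difference of 3.62 with a standard error of 0.25 (95% interval 3.05 to 4.19, adjusted p = 0.000275) or 12.3-fold. It was the 16th largest increase of the 14137 genes. The exact two-sided permutation test over the 70 relabelings of the arrays gave p = 0.0286, the smallest it can give here.

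The array carries this Igf2 probe in 10 spots, of which 9 or 10 were kept per array. Their SD within an array was between 0.0263 and 0.0542, far below the difference between the genotypes. A further Igf2 probe, present as 1 spot, read between 6.26 and 7.77 in WT glands and between 10.56 and 11.05 in KO glands. Its difference was 3.69 with a standard error of 0.29, close to that of the brighter probe. The increase is measured with Igf2 signal already present in the controls, since both probes were well above background in all 4 WT glands. Among WT glands the signal varied 2.3-fold, and among KO glands 1.46-fold.

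Igf1, the ligand that mediates much of the action of growth hormone and is made by stromal cells of the gland, lay lower in KO glands by a much smaller amount. Its values were 10.31, 10.70, 10.61 and 10.61 in WT glands 1 to 4 and 10.27, 10.03, 9.80 and 10.25 in KO glands 1 to 4. The groups did not overlap, but WT gland 1 and KO gland 1 were only 0.04 apart. The difference was -0.47 with a standard error of 0.14 (95% interval -0.79 to -0.15), and its adjusted p of 0.0534 missed the threshold. A dimmer Igf1 probe differed by -0.39 (adjusted p = 0.112 over probes). Igf1 passed the threshold without WT gland 1 (-0.55, adjusted p = 0.0326), and over all 18 alternatives its adjusted p ran from 0.0326 to 0.135.

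**Figure D1:**
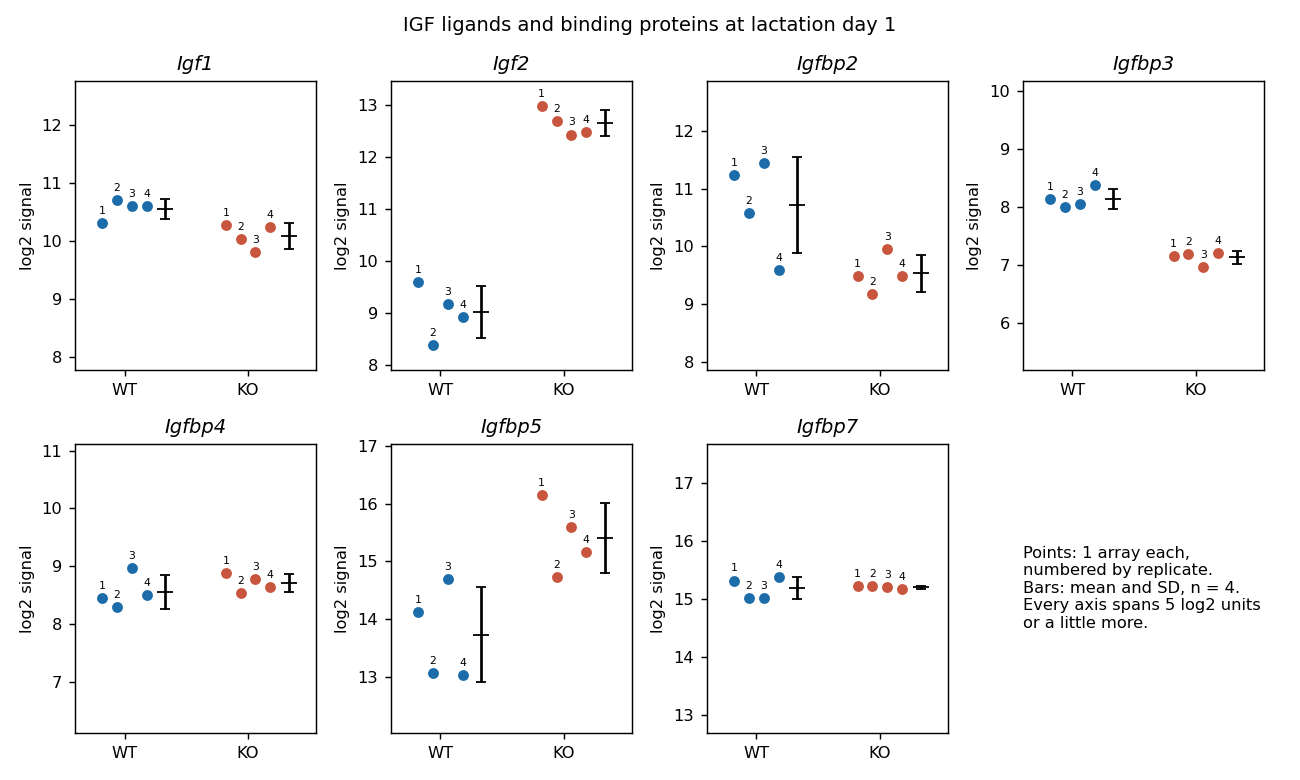
Log2 signal of the 7 measured members (vertical axes) in WT (blue) and KO (red) glands, with each point 1 array numbered by replicate, and bars for the mean and SD (n = 4). Igf2 in KO glands sat between 12.43 and 12.97, above all WT glands, Igfbp3 in KO glands sat between 6.97 and 7.21, below all WT glands, and the Igfbp7 points lay between 15.02 and 15.38 throughout.

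Igfbp5, a binding protein that also attaches to extracellular matrix, rose in KO glands. It read 14.13, 13.07, 14.69 and 13.04 in WT glands 1 to 4 and 16.15, 14.72, 15.59 and 15.16 in KO glands 1 to 4. The genotypes met almost without a gap, with WT gland 3 and KO gland 2 only 0.03 apart, and both groups were widely spread, over 3.15-fold in WT and 2.69-fold in KO. The difference was 1.67 with a standard error of 0.43 (95% interval 0.68 to 2.66, adjusted p = 0.0363), or 3.19-fold, and the exact test gave p = 0.0286. The exact p follows from the lack of overlap, which 24.1% of all genes showed. So does a higher KO gland in each of the 4 pairs of equal replicate number, by 0.90 to 2.12. The labels do not say what a replicate number shares.

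On the dimmer Igfbp5 probe the glands of each genotype stood in the same order as on the brighter one. It read 8.52, 7.62, 9.25 and 7.43 in WT glands and 10.79, 8.93, 9.92 and 9.50 in KO glands. Its difference of 1.58 had an adjusted p of 0.0588 over probes, and here WT gland 3 lay above KO gland 2. The call for Igfbp5 was lost without WT gland 2 (1.45, adjusted p = 0.0975), WT gland 4 (1.44, 0.0715), KO gland 1 (1.42, 0.0866) or KO gland 3 (1.61, 0.0942). It was also lost with no filter on dim probes (adjusted p = 0.0566), in the methods' t-test (0.084) and with array position on the slide as a block (0.113), while the difference stayed above 0 in all 18 alternatives.

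Igfbp3, the main carrier of IGFs in blood, fell in KO glands. Its values were 8.14, 8.01, 8.05 and 8.39 in WT glands 1 to 4 and 7.16, 7.19, 6.97 and 7.21 in KO glands 1 to 4. The groups were 0.80 apart and each was tight, with an SD of 0.17 in WT and 0.11 in KO. The difference was -1.02 with a standard error of 0.12 (95% interval -1.28 to -0.75, adjusted p = 0.00429), which is 2.02-fold. The exact test gave p = 0.0286, which follows from the lack of overlap. The call was lost in 1 of 18 alternatives, the block of array position, at an adjusted p of 0.0524.

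Igfbp2, a binding protein abundant in fetal life, had the widest spread among WT glands of any member. It read 11.23, 10.58, 11.44 and 9.60 in WT glands 1 to 4 and 9.49, 9.18, 9.96 and 9.50 in KO glands 1 to 4. WT gland 4 lay within the KO range and the other 3 WT glands above it. The difference of -1.18 (standard error 0.38, 95% interval -2.05 to -0.31) did not pass the test, at an adjusted p of 0.0635 and an exact p of 0.0571. KO glands were lower in all 4 pairs, with differences of -1.73, -1.40, -1.48 and -0.10 for numbers 1 to 4, and a fit that blocked on this number gave an adjusted p of 0.0402. Without WT gland 4 the difference was -1.55 (adjusted p = 0.0194).

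Igfbp4, a binding protein known to restrain IGF action and the classical substrate of the protease PAPP-A, did not pass the test. It ranged from 8.29 to 8.98 in WT glands and from 8.54 to 8.88 in KO glands, so the KO values lay inside the WT range. The difference was 0.15 (95% interval -0.21 to 0.52, adjusted p = 0.519), and a dimmer probe differed by 0.47 (adjusted p = 0.207 over probes). Igfbp7, a related secreted protein with low affinity for IGFs, read 15.32, 15.02, 15.02 and 15.38 in WT glands and 15.22, 15.22, 15.21 and 15.17 in KO glands. The KO values again lay inside the WT range. Its difference was 0.02 (95% interval -0.24 to 0.28, adjusted p = 0.914), and scaling by the 75th percentile of each array gave -0.15 (adjusted p = 0.314).

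**Figure D2:**
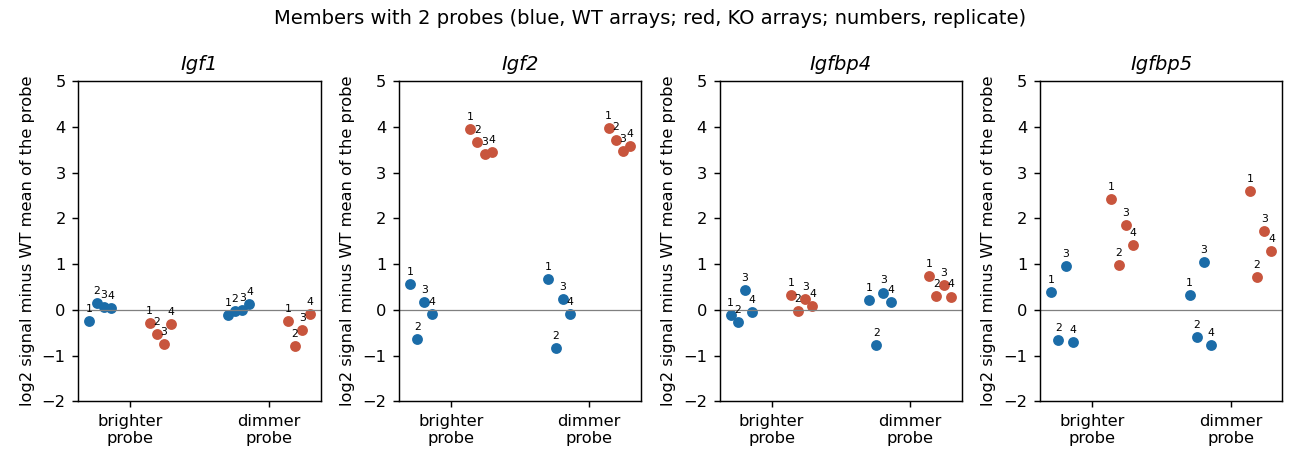
Log2 signal minus the WT mean of the same probe (vertical axes) for the 4 members with 2 probes, with WT arrays in blue and KO arrays in red, numbered by replicate. The Igf2 probes differed by 3.62 and 3.69 and the Igfbp5 probes by 1.67 and 1.58, while the Igfbp4 probes differed by 0.15 and 0.47.

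Among the glands of 1 genotype the members did not move as a block. After each genotype's mean was subtracted, Pearson's r over the 8 arrays was 0.84 between Igfbp4 and Igfbp5, 0.76 between Igfbp2 and Igfbp5, and 0.63 between Igf2 and Igfbp5. Igfbp2 and Igfbp3 had r = -0.77. Igfbp2 and Igfbp5, which differed in opposite directions between the genotypes, thus varied in the same direction within them. These values describe 8 arrays that share a normalization and are given with no test.

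The genes most like each member over the 8 arrays were found by Pearson's r among all genes tested, which counts a shared step between genotypes as likeness, and r after each genotype's mean was subtracted is given second. For Igf2 they were Top3b (r = 0.994, and 0.939 within genotypes), Tmem184a (0.993 and 0.862) and Dennd5a (0.992 and 0.871). Those 3 genes differed by 0.34, 0.31 and 0.61, so they shared the shape and not the size of the Igf2 difference. For Igfbp5 they were Renbp (0.986 and 0.976), Fam171a2 (0.984 and 0.954) and Samd14 (0.983 and 0.962). For Igfbp3 they were BC024139 (0.989 and 0.898), Slc46a1 (0.980 and 0.725) and Abcc8 (0.980 and 0.657). For Igf1 they were Mon1a, Nmi and Fam166c, and for Igfbp2 they were Rrp36, Arfgap2 and Imp4, with r of 0.981 or more in all 6. For Igfbp4 they were Coro7, Fggy and Tex33, and for Igfbp7 they were Tbc1d15, Pik3c3 and Cep44, with r between 0.917 and 0.966.

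The receptors and the growth hormone axis around the ligands were followed in a list of 12 genes, of which 11 were tested. In this list 1 gene rose and 1 fell, a share close to the 16.5% of all genes, and 4 had an unadjusted p under 0.05, against 36.3% of all genes. The median difference was -0.03, against -0.02 over all genes. Igf1r, the receptor of both ligands, rose. It read 9.53, 8.53, 8.87 and 8.61 in WT glands and 10.23, 9.80, 10.38 and 9.67 in KO glands, with no overlap. The difference was 1.13 with a standard error of 0.25 (adjusted p = 0.0236), and its other probes differed by 1.02 and 0.98. Igfals, the acid-labile subunit that joins IGFs and IGFBP-3 or IGFBP-5 in a ternary complex, fell.

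Igfals read 11.70, 11.90, 12.03 and 12.25 in WT glands and 11.61, 10.51, 10.64 and 10.77 in KO glands. KO gland 1 was close to the WT glands and the other 3 were well below them. The difference was -1.09 with a standard error of 0.24 (adjusted p = 0.0244). The calls for Igf1r and Igfals were each lost in 6 of 18 alternatives, at adjusted p up to 0.0901 and 0.076, among them the methods' t-test, the block of array position and the removal of WT gland 2, WT gland 3 or KO gland 3, and in addition KO gland 1 for Igf1r and KO gland 2 for Igfals.

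Other receptors and signal carriers did not pass the test. Igf2r, which clears IGF-II, differed by 0.19 (adjusted p = 0.226), and Ghr, the growth hormone receptor, by -0.10 (adjusted p = 0.709), with 0.04 without WT gland 1. Stat5a, the transcription factor downstream of prolactin and growth hormone receptors, was 12.31 to 12.61 in WT glands and 11.11 to 12.26 in KO glands, and it was chosen for mention after its values were seen. Its difference of -0.72 had an adjusted p of 0.0632, and 0.0404 when the fit blocked on replicate number. No probe was matched for Irs2.

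Proteases that cut IGF binding proteins and the inhibitors of those proteases formed a list of 15 genes, 12 of them tested. Of the 12, 2 rose and 2 fell, against 16.5% of all genes called in either direction. An unadjusted p under 0.05 was found for 5, against 36.3% of all genes (median difference -0.11). Pappa, which encodes the protease PAPP-A that cuts IGFBP-4 and IGFBP-5, rose. It read 6.91, 5.37, 6.02 and 6.45 in WT glands and 8.63, 6.88, 8.43 and 7.89 in KO glands. WT gland 1 lay just above KO gland 2, and in each pair of equal number the KO gland was higher by 1.44 to 2.41. The difference was 1.77 with a standard error of 0.43 (adjusted p = 0.0314), and 1.14 (0.0339) after normexp background correction. Of 2 matched Pappa probes only this 1 entered the test.

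Stc2 and Stc1, the stanniocalcins known as inhibitors of PAPP-A, fell. Stc2 read 10.01, 11.09, 10.32 and 11.02 in WT glands and 9.28, 9.62, 9.05 and 9.75 in KO glands, a difference of -1.18 with a standard error of 0.27 (adjusted p = 0.0267). Stc1 read 9.20, 8.53, 8.98 and 8.50 in WT glands and 7.58, 7.90, 8.25 and 7.92 in KO glands, a difference of -0.89 with a standard error of 0.20 (adjusted p = 0.0251). Neither gene's genotypes overlapped, and the other probes of Stc1 differed by -0.91 and -1.02. Plau, the urokinase plasminogen activator, rose by 0.51 (standard error 0.09, adjusted p = 0.0139) with tight groups of 7.15 to 7.27 in WT and 7.66 to 7.82 in KO. Pappa2, Adam12 and Plg were not well above background on all arrays of either genotype.

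The call for Plau was lost only with array position as a block (adjusted p = 0.0798), but its dimmer probe differed by 0.48 with an adjusted p of 0.0767 over probes. Pappa was lost without WT gland 2, WT gland 3, KO gland 1 or KO gland 3 (adjusted p between 0.074 and 0.0874). Stc2 was lost without WT gland 2, WT gland 4, KO gland 1, KO gland 2 or KO gland 3 (0.0516 to 0.076), and Stc1 without WT gland 3, KO gland 1 or KO gland 2 (0.0594 to 0.0639). All 3 were also lost in the methods' t-test and with array position as a block, at adjusted p up to 0.107, and none changed direction in any of the 18 alternatives.

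**Figure D3:**
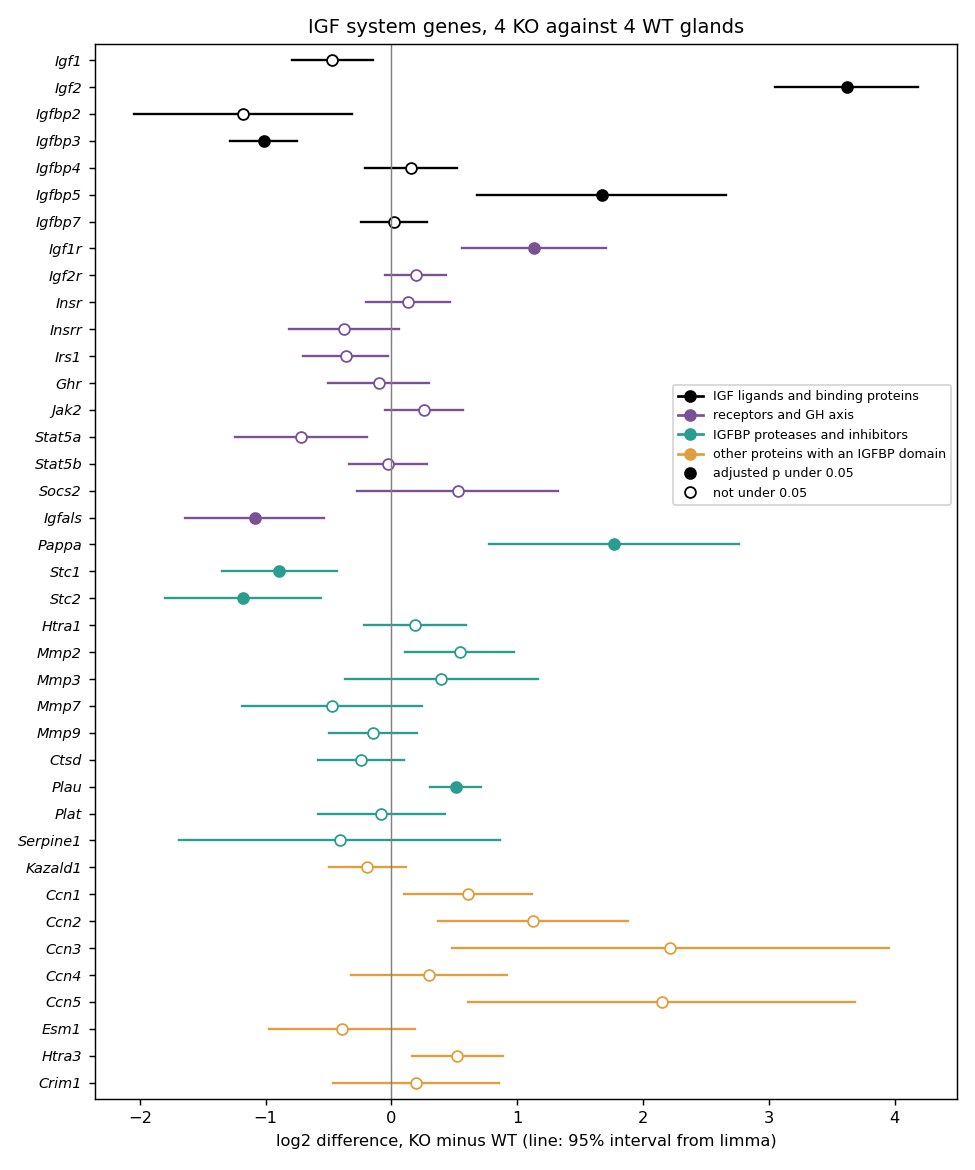
Log2 difference, KO minus WT, with its 95% interval from limma (horizontal axis) for the 7 members and for genes of the receptor, protease and IGFBP-domain lists, filled where the adjusted p was under 0.05. Igf2 at 3.62 stands apart on the right, Pappa at 1.77 and Igfbp5 at 1.67 follow among filled points, and Stc2 at -1.18 and Igfals at -1.09 are the filled points farthest to the left.

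Other proteins that share the IGF binding domain, among them the matricellular CCN proteins, formed a list of 14 genes. None of the 10 tested passed the limma threshold, and the methods' t-test also called 0. An unadjusted p under 0.05 was found for 5, against 36.3% of all genes. The median difference was 0.41, against -0.02 over all genes, with 8 means higher and 2 lower. Ccn2, Ccn3 and Ccn5, chosen for mention after their values were seen, differed by 1.12 (adjusted p = 0.0513), 2.22 (0.0756) and 2.15 (0.06). They were higher in the KO gland in all 4 pairs, and blocking on replicate number gave adjusted p-values of 0.0358, 0.00803 and 0.0211. The labels do not say what a replicate number shares, so these blocked values rest on an assumed pairing. Ccn2 ranged from 11.50 to 13.07 in WT glands and from 12.77 to 13.61 in KO glands. Ccn3 ranged from 6.09 to 8.82 and from 8.77 to 10.61, and Ccn5 from 6.73 to 8.02 and from 7.60 to 10.74. The genotypes thus overlapped for each of these genes. Igfbp1, the neighbour of Igfbp3 and a binding protein made mainly in liver, was well above background on 0 of 8 arrays, and Igfbpl1, Ccn6 and Htra4 were not tested for the same reason of low signal.

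Because Igf2 is an imprinted gene, transcribed from the paternal copy, 12 imprinted genes and RNA partners of Igf2 were listed, and 9 were tested. In this list 1 gene rose and 1 fell, against 16.5% of all genes called in either direction. An unadjusted p under 0.05 was found for 4, against 36.3% of all genes (median difference 0.24). Peg3, a paternally expressed zinc finger gene, rose from 8.93, 7.59, 8.39 and 8.15 in WT glands to 9.08, 9.10, 9.27 and 9.30 in KO glands. The difference was 0.92 (standard error 0.25, adjusted p = 0.0403), and the call was lost in 10 of 18 alternatives, at adjusted p between 0.0617 and 0.101. Mest, also paternally expressed, fell from a WT range of 10.02 to 10.50 to a KO range of 8.93 to 9.44, a difference of -0.98 (standard error 0.15, adjusted p = 0.0104) that held in all 18. Blocking on replicate number called 4 genes of this list, the others being Plagl1 (0.51, adjusted p = 0.0414) and Meg3 (0.60, 0.0288). No probe was matched for H19, the neighbour that shares an imprinting control region with Igf2, and Igf2bp1 and Igf2bp3 were not well above background on all arrays of either genotype.

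Markers of the cell types in the gland were read beside these values. The counts of called genes in every marker list stand beside 16.5% of all genes tested, with 7.53% risen and 8.96% fallen. An unadjusted p under 0.05 was found for 36.3% of all genes. The mean log2 signal of the luminal epithelium list did not overlap between genotypes, at 12.12 to 12.44 in WT and 12.63 to 12.75 in KO glands, and 4 of its 10 tested genes rose (Krt18, Epcam, Cdh1 and Foxa1). Of the other luminal genes, Elf5, a transcription factor of alveolar cells, Prlr, the prolactin receptor, and Esr1, an estrogen receptor, had lower means in KO glands, with differences of -0.35 (adjusted p = 0.107), -0.20 (0.473) and -0.13 (0.726). Its summed signal ran from 222947 to 276007 in WT and from 279372 to 323711 in KO glands. The neutrophil list also stood apart, at 7.23 to 7.72 and 9.08 to 10.05, with 3 of 7 tested genes risen (Camp, Ngp and Ltf) and summed signals of 67312 to 100609 and 169283 to 270510. Camp and Ngp, genes of granules of maturing neutrophils, were not well above background on any WT array, Elane on 0 of 8 arrays, and no probe was matched for Ly6g. Camp and Ngp entered the test through the KO glands alone, and the list mean differed by 1.86 with them and by 0.86 without them, at 9.07 to 9.86 in WT and 10.06 to 11.10 in KO glands. Ltf, a gene that mammary epithelium also expresses, was the brightest of the list, at means of 16.27 in WT and 17.58 in KO glands. The summed signals of the neutrophil list are therefore mostly Ltf. S100a9, S100a8, Mpo and Csf3r differed by 2.19, 0.49, 0.24 and 0.08, and none of them passed the test. The part of these cell types in the differences of Igf2, Igfbp5 and Igfbp3 was not tested.

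Fibroblasts and adipocytes, which are known sources of IGFs and their binding proteins, were read in the same way. The fibroblast list lay at 12.32 to 12.57 in WT and 12.51 to 13.07 in KO glands, with 1 of 10 genes risen (Dcn), and summed signals of 181666 to 229566 and 223190 to 329390. The differences of its 10 genes ran from -0.01 to 0.57. The adipocyte list lay at 12.96 to 13.57 and 13.53 to 13.73, with 2 of 10 risen (Plin1 and Cfd) and summed signals of 351854 to 487249 and 493879 to 674340. The summed signals of the adipocyte list did not overlap, and the differences of its 10 genes ran from -0.73 to 0.71. The list mean differed by 0.31 for fibroblasts, 0.33 for adipocytes and 0.36 for luminal epithelium. The part of fibroblasts and adipocytes in the members' differences was not tested.

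For the endothelium, pericyte, macrophage and milk protein lists 0 genes were called in limma, while 2, 3, 0 and 0 had an unadjusted p under 0.05, and the genotypes overlapped in the list mean. In the basal epithelium list 1 of 10 fell (Krt17), and in the T cell list 2 of 9 fell (Cd3e and Cd4). The T cell list mean ran from 6.15 to 7.34 in WT glands, with WT glands 2 and 3 high, and from 6.17 to 6.47 in KO glands. Cd4 was dim in both genotypes, at means of 4.77 and 4.34. The milk proteins, the defining products of the lactating gland, were bright in every gland, with a list mean of 17.06 to 17.39 in WT and 16.93 to 17.47 in KO glands.

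**Figure D4:**
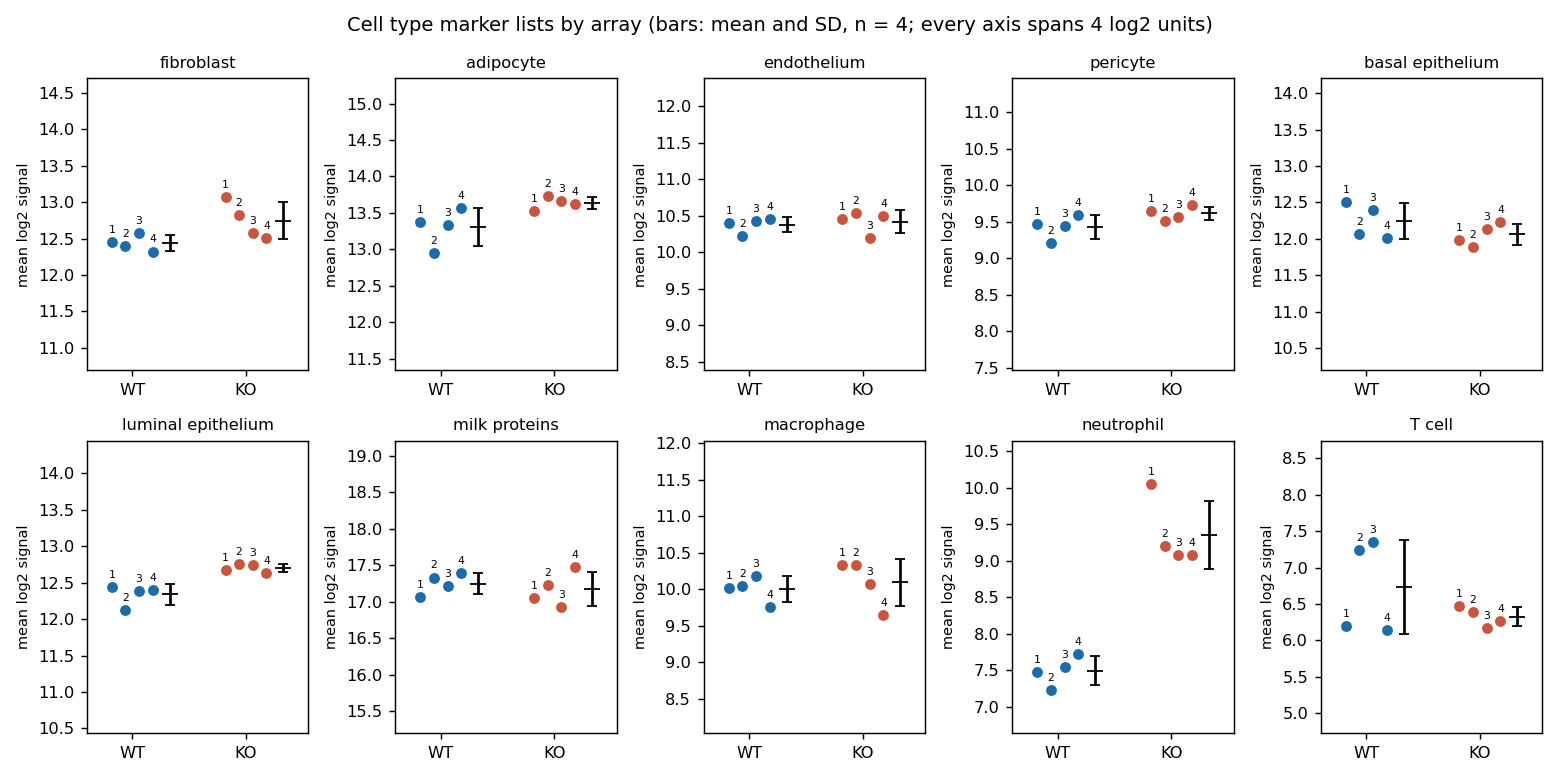
Mean log2 signal of each cell type marker list (vertical axes) in WT (blue) and KO (red) glands, with points numbered by replicate and bars for the mean and SD (n = 4). The luminal epithelium (12.12 to 12.44 against 12.63 to 12.75) and neutrophil lists (7.23 to 7.72 against 9.08 to 10.05) did not overlap between genotypes, and the milk protein list lay between 16.93 and 17.47 in all glands. The neutrophil points include Camp and Ngp, which entered the test through the KO glands alone. Without them that list lay at 9.07 to 9.86 in WT and 10.06 to 11.10 in KO glands.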

How the data were processed

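RNA of 8 glands was measured on 8 arrays. The authors deposited scanner output of Agilent Feature Extraction 10.7, whose processed intensity was background-subtracted within each array with no scaling between arrays. A table of quantile-normalized log2 values, deposited beside it, served as an alternative. Each of its columns correlated with the same array's log2 processed intensity at r of 0.9985 or more. Its median was 6.32.

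Here log2 intensities of non-control spots were quantile-normalized with limma 3.58.1 in R 4.3.3. Outlier spots (64 to 100 per array) were dropped and the spots of a probe averaged. Accessions named 27479 of 41174 probes. A probe entered if 1 genotype or both had it well above background on 4 of 4 arrays, and the brightest probe stood for its gene. Alternatives changed the scaling, background correction, filter, probe choice, naming, outlier spots, pairing, test and source table, or left out 1 array. The code was tested on simulated data. The number of arrays limits precision.

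Named genes were all members, Zbtb7b, called genes of each list (up to 5), Igf1r, Igf2r, Ghr, Pappa, Stc2, Igfbp1 and H19, the 3 genes most like each member, and the 2 brightest markers of each list. Markers are given here by list range and calls instead, and a list mean without genes at background in 1 genotype was added after the data were seen. Members and lists were chosen with earlier results of these data known. Deviations correlated at r = 0.219, 0.165, 0.304 and 0.283 between WT and KO arrays of equal number, all above 0.1. The numbers were therefore taken as pairing the glands in an alternative fit, the replicate block. The main fit used genotype alone and no pairing. The labels do not say what a number shares.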

Additional observations from a re-analysis of the deposited data

Results flagged for a closer look

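Among 86 groups of 4 arrays checked, 2 held a gland far from the others. That is a smaller share than the 1 in 20 or so that chance gives. The luminal epithelium list mean was 12.12 in WT gland 2, against 12.39 to 12.44 in the other WT glands. The neutrophil list mean, with Camp and Ngp included, was 10.05 in KO gland 1, against 9.08 to 9.20 in the other KO glands. WT gland 2 was also the lowest WT gland for Igf2, at 8.39, and KO gland 1 the highest KO gland for Igf2, Igfbp5 and Pappa, at 12.97, 16.15 and 8.63. Without WT gland 2 or KO gland 1 Igf2 stayed called, and Igfbp5 and Pappa did not.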

How the results depend on the processing

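Igf2 and Mest kept their direction and their call in all 18 alternatives, Igf2 with differences between 3.41 and 3.81. Members called numbered 3, with 1 under the block of array position on the slide (an alternative chosen after seeing the data) and 2 to 4 without each array in turn. Over all genes, 2331 were called, with 1389 in the methods' t-test, 137 under array position, and 519 to 3076 without each array. The lowest counts came without KO gland 3 (519), KO gland 1 (732) and WT gland 2 (762). Receptors called went from 2 to 0 in the t-test and under array position (0 to 4 without each array). Proteases and inhibitors went from 4 to 1 in the t-test and 0 under array position (1 to 5). IGFBP-domain genes went from 0 to 2 with normexp and 3 with the replicate block (0 to 1), and imprinted genes from 2 to 4 with the replicate block and 1 with no filter, the t-test or array position (1 to 3). Signs turned for Igfbp7, at -0.15 with 75th percentile scaling, and without each array it ran from -0.0362 (WT gland 3) to 0.0845, with -0.0344 without WT gland 2. Ghr ran from -0.2192 to 0.0402 without each array, the latter without WT gland 1. With normexp the difference of Pappa was 1.14 and that of Zbtb7b -4.25, against -8.58. Igf1 was called with 75th percentile scaling (adjusted p = 0.0471) and normexp (0.0469). The causes were not tested. Among the genes named here, the replicate block brought calls for Igfbp2, Stat5a, Ccn2, Ccn3, Ccn5, Plagl1 and Meg3. It changed no other call among the members, Zbtb7b and the receptor, protease, IGFBP-domain and imprinted genes named here. Single marker genes were not followed through the alternatives. The planned normexp on mean signals was not run, since the columns used here hold median signals, on which it was run instead after the data were seen.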
